A study of Homo sapiens with 6 samples.

Results

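The genes described here encode the protein part of the human mitochondrial ribosome together with the initiation and elongation factors that work on it. They were taken by name: a gene was included where its symbol began with MRPL or MRPS and a number, or was DAP3, TSFM, TUFM, GFM1, GFM2, MTIF2 or MTIF3. Only probe sets with 1 gene symbol were used, and where a gene had several, the one with the highest mean over all 6 arrays stood for it. This gave 81 genes of the 11584 measured. Of these, 50 code for proteins of the large subunit, 26 for proteins of the small subunit and 5 for translation factors. RefSeq lists 84 protein-coding genes that match the rule. The remaining 3, GFM2, MRPL53 and MRPS24, had no probe set with 1 symbol among the data used and were not analysed as genes.

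Mitochondria keep a small genome of their own, and the few proteins it encodes, all core subunits of the respiratory chain and ATP synthase, are made by a dedicated ribosome in the matrix. Its RNA comes from the mitochondrial genome, but every one of its proteins is encoded in the nucleus, made in the cytosol and imported, so the supply of the particle rests on many separate nuclear mRNAs. Part of these proteins descend from bacterial ribosomal proteins, and the others have no counterpart in the bacterial ribosome and were gained during the evolution of mitochondria.

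The study measured RNA of HEK293 T-REx Flp-In cells, which derive from human embryonic kidney, with Affymetrix U133 Plus 2.0 arrays, and asked which mRNAs change when LIN28B is depleted. LIN28B binds RNA: it holds back the processing of let-7 microRNA precursors and associates with a large set of mRNAs. In all arrays the cells carried a doxycycline-inducible transgene for LIN28B with a FLAG/HA tag, stably inserted. The 3 groups of 2 arrays each were cells transfected with siRNA against LIN28B and with the transgene not induced, mock-transfected cells with the transgene induced, and mock-transfected cells with the transgene not induced. The protocol gives induction with 250 ng/ml doxycycline for 15 to 20 h, stated for crosslinking experiments. No cells given a non-targeting siRNA were among the arrays, so the comparison of siRNA with mock cells holds the transfection of siRNA as well as the loss of LIN28B. Nothing in the labels tells if replicates were separate cultures, so p-values measure only how far these arrays differ, which may be technical.

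Values are log2 array signals, compared within a probe set and never between probe sets. A gene was called where limma gave a Benjamini-Hochberg adjusted p under 0.05 over all 11584 genes. Each SD is taken over the 2 arrays of 1 group, and fold changes are log2 differences with their standard error (SE). LIN28B itself read 7.51 and 7.53 on the siRNA arrays, 10.15 and 10.11 on the induced mock arrays, and 10.02 and 9.85 on the uninduced mock arrays. This is a fold change of -2.42 (SE 0.08, limma adjusted p = 5.02e-07) against uninduced mock cells, to 18.7% of their level. The induced mock arrays read LIN28B 0.19 above the uninduced ones, which did not pass the test. Whether this probe set reads the transgene was not analysed here. Arrays of 1 group correlated at r of at least 0.9899 across probe sets, which are not independent. Induced with uninduced mock arrays correlated at 0.9916 to 0.9935, above the 0.9899 of the 2 uninduced arrays. The siRNA arrays correlated with mock arrays at 0.97 to 0.9745. Of the listed markers of other cell types, 1 of 7 for fibroblasts, 2 of 7 for blood cells and 0 of 5 for endothelium had a probe set among the data, and 0 of these 3 genes were called. Of 6 markers of embryonic kidney, 5 were measured and 2 rose with siRNA, SIX2 by 1.15 and LHX1 by 0.71. Of 6 genes of neuronal type that HEK293 cells express, 3 were measured, and SYT1 (0.75) and INA (0.73) rose while NEFL fell (-0.59). These 5 markers are named because they were called. Their part in the results below was not tested.

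All 81 genes were read above 5 on every array, with values from 5.43 to 12.15, so 0 were lost to the filter on low values. For 80 of them the data held a single probe set. DAP3 had 2. For 46 genes the probe set carries the suffix _s_at or _x_at, which marks sets that can also read related transcripts, and MRPL9 is among these. The median SD within a group over the 81 genes was 0.04 on the siRNA arrays, 0.05 on the induced mock arrays and 0.06 on the uninduced mock arrays, against 0.07, 0.07 and 0.10 over all genes.

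The promoters of the 3 genes that fell most and the 3 that rose most with siRNA against LIN28B are given first. Some other genes fell by more than the genes that rose most. The sequences are the 150 bases before the transcription start in RefSeq, build GRCh38.p14, written 5' to 3' on the strand of the gene. Capitals mark exact matches to motifs searched on both strands: the ETS family motif CCGGAAG, and the CCAAT box, spelled as its name. A match on the opposite strand shows as the reverse complement. MRPL9 lies on the minus strand at chr1:151763497-151763646, MRPS34 on the minus strand at chr16:1773135-1773284 and MRPS9 on the plus strand at chr2:105037919-105038068. MRPS18A lies on the minus strand at chr6:43687792-43687941, MRPL42 on the plus strand at chr12:93467364-93467513 and MRPL1 on the plus strand at chr4:77862680-77862829.
MRPL9: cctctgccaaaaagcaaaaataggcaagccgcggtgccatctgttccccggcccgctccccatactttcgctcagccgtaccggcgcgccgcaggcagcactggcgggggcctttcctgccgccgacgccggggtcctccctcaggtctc
MRPS34: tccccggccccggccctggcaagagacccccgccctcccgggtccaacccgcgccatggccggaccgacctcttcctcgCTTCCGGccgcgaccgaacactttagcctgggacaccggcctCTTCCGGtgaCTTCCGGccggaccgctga
MRPS9: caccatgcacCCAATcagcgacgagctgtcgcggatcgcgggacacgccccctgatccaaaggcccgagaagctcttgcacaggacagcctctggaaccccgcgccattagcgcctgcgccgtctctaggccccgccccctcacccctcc
MRPS18A: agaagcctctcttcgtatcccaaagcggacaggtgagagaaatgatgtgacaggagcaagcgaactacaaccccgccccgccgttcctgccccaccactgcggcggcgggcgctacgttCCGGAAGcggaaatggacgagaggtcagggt
MRPL42: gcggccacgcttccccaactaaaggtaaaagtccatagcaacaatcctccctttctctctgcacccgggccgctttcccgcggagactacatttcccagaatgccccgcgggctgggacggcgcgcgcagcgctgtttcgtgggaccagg
MRPL1: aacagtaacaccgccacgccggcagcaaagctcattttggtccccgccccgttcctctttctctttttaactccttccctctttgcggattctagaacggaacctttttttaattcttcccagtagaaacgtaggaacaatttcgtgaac

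In these stretches MRPS34 held 3 ETS matches, starting at positions -71, -29 and -19 from the start. MRPS18A held 1 ETS match at -31, and MRPS9 a CCAAT box at -140. The MRPL9, MRPL42 and MRPL1 stretches held no match to any of the 6 motifs searched, each taken on both strands. The further motifs were ATGGCGG for the factor YY1, and the core of the NRF1 site, TGCGCA. The others were the E-box of letters CACGTG, and a TATA box taken as TATAAA.

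Over the full window of 250 bases before to 50 bases after the start, 73 of the 81 genes had a sequence, and the shares with ETS and YY1 letters were above those of the measured genes. The ETS motif stood in 31 of the 73 (42.5%), against 19.4% of the 9476 measured genes with a window and 10.7% of all 27305 promoters. The YY1 motif stood in 23 (31.5%), against 10.6% of measured genes and 5.72% of all promoters. In 19 of these 23 genes a YY1 match lay in the 50 bases after the start. The letters ATGGCGG begin with the start codon ATG, and whether these matches are starts of translation was not tested. Either motif was present in 47 genes and both were present in 7. The NRF1 core stood in 14 genes (19.2%), against 13.9% of measured genes. The other motifs were at or below the level of measured genes: the CCAAT box in 28.8% against 37.0%, the E-box in 8.22% against 10.5% and the TATA box in 2.74% against 5.19%. No match of one motif overlapped a match of another in these 73 windows.

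The 6 promoters printed above each held a YY1 match within the wider window, outside the bases shown. By direction of change, the ETS motif was found in 3 of the 13 genes that rose with siRNA, in 4 of the 10 with a window that fell and in 24 of the 50 that were not called. The YY1 motif was found in 4 of 13, 4 of 10 and 15 of 50. These differences were not tested, and a match of letters is no evidence that a factor binds there.

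In cells given siRNA against LIN28B, mitochondrial ribosomal protein mRNAs changed in both directions against uninduced mock cells. The arrays read RNA of whole cultures, so a change in the mix of cells and a change in RNA per cell cannot be told apart. Of the 81 genes, 13 rose, 11 fell and 57 were not called, which is 29.6% called beside 28.0% of all genes. In the rising direction 16.0% of the 81 were called beside 13.5% of all genes, and in the falling direction 13.6% beside 14.5%. The median fold change was 0.03, beside 0.01 over all genes, and the median size of change without its sign was 0.16, beside 0.21. Only MRPL9 passed a minimum of 2-fold. The siRNA and uninduced arrays did not overlap for 57 genes (34 higher and 23 lower, 70.4%), beside 62.6% of all genes, where 28.0% were called.

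**Figure D1:**
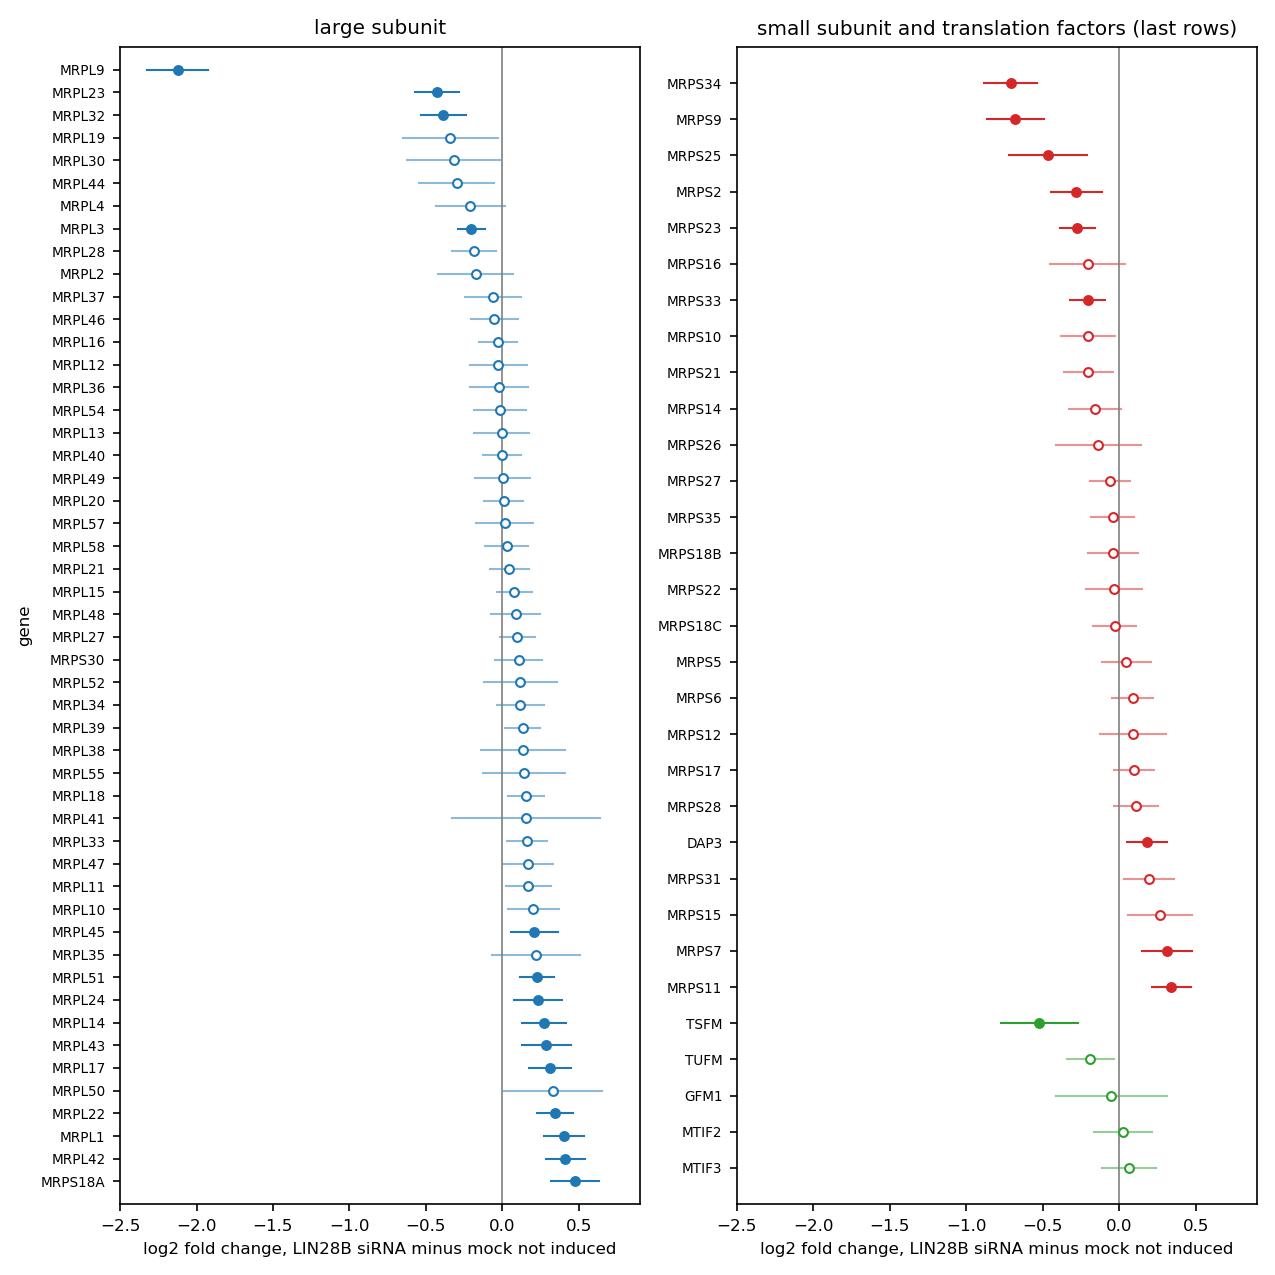
Log2 fold change, LIN28B siRNA minus mock not induced, for the 81 genes (points) with 95% confidence intervals from limma (lines), the large subunit on the left and the small subunit and translation factors on the right. Filled points are called genes. MRPL9 at -2.12 lies apart from the other genes, which run between -0.71 and 0.47.

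The counts rest on few arrays. Without siRNA replicate 1 the rising count was 6, and without siRNA replicate 2 it was 7. Without uninduced replicate 2 the falling count was 17. Over all genes the count of 3242 became 1664 and 1975 without siRNA replicate 1 or 2. Without the intensity trend in the estimate of the spread, 6 of the 81 genes rose and 7 fell. Where a siRNA array was left out, the lone siRNA array was taken to vary like the other groups.

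The scale between arrays also matters for the small rises. Centring each array on its median moved the median of all genes by 0.03 and gave 20 rises and 11 falls among the 81 genes, and 1835 rises and 1524 falls among all genes, beside 1563 and 1679 on the deposited scale. With quantile normalization 12 of the 81 genes rose. By type of probe set, 9 rose and 6 fell of the 46 read by _s_at or _x_at sets (32.6%). Of the other 35, 4 rose and 5 fell (25.7%). Over all genes, of any probe set type, 28.0% were called, and the difference between the types was not tested.

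The subunits are given beside the 28.0% of all genes called, 13.5% rising and 14.5% falling. Of the 50 large subunit proteins 10 rose and 4 fell (28.0% called), with a median of 0.09. Of the 26 small subunit proteins 3 rose and 6 fell (34.6% called), with a median of -0.04. Among large subunit proteins grouped here as having a relative in the bacterial ribosome 6 rose and 4 fell of 29. Among those grouped as having none 4 rose and 0 fell of 21. Of these 21, 8 passed an unadjusted limma p under 0.05, beside 4562 of all 11584 genes. MRPL47, a counterpart of bacterial L29, was wrongly placed in this second group and was among those that passed. It was not called, so the counts of rises and falls do not include it. Among small subunit proteins the counts were 2 and 2 of 16 with a bacterial relative, and 1 and 4 of 10 without one. Differences between these classes were not tested.

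**Figure D2:**
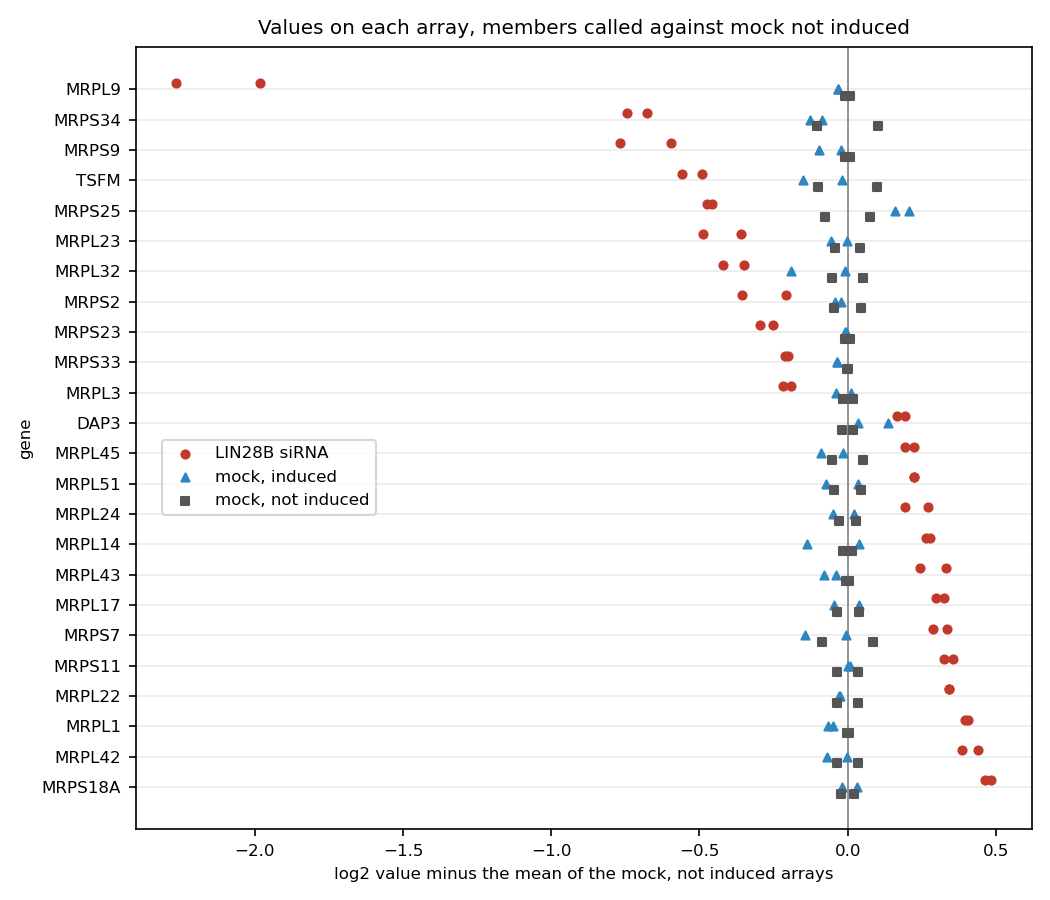
Log2 value on each array minus the mean of the 2 mock, not induced arrays, for the 24 genes called in siRNA minus not induced, ordered by fold change. Circles are LIN28B siRNA arrays, triangles induced mock arrays and squares mock, not induced arrays. The circles of each gene lie on 1 side of its squares, and MRPL9 stands apart at about 2 log2 units below.

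MRPL9, which encodes the mitochondrial counterpart of bacterial protein L9 in the large subunit, changed most. Its probe set read 8.04 and 8.32 on the siRNA arrays, 10.27 and 10.27 on the induced mock arrays, and 10.31 and 10.29 on the uninduced mock arrays. Both siRNA arrays lay far below all 4 mock arrays, which stood between 10.27 and 10.31. The fold change was -2.12 (SE 0.09, limma adjusted p = 1.4e-06), to 22.9% of the uninduced level, and -2.09 against induced mock cells. The siRNA arrays differed from each other more than the mock arrays did, with an SD of 0.20. As this probe set is of the type that can read related transcripts and is the only MRPL9 set among the data, a second reading of the gene was not available here. The sources used here do not give the siRNA sequence, and whether it matches the MRPL9 mRNA was not tested.

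MRPS34 and MRPS9 followed, both in the small subunit. MRPS34 encodes a protein with no bacterial relative, and inherited defects in it impair mitochondrial translation in humans. It read 9.42 and 9.35 on the siRNA arrays, 10.01 and 9.97 on the induced mock arrays, and 9.99 and 10.20 on the uninduced mock arrays, a fold change of -0.71 (SE 0.08, limma adjusted p = 0.000222). All siRNA values lay below all mock values. MRPS9, the counterpart of bacterial S9, whose tail in bacteria reaches toward the tRNA in the peptidyl site, read 8.39 and 8.56 on the siRNA arrays, 9.14 and 9.06 on the induced mock arrays, and 9.15 and 9.17 on the uninduced mock arrays. Its groups were again apart, with a fold change of -0.68 (SE 0.08, adjusted p = 0.000422).

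The other 4 small subunit genes that fell did so by less. MRPS25, a protein without bacterial relative, read 6.46 and 6.44 on the siRNA arrays, 7.08 and 7.13 on the induced mock arrays, and 6.99 and 6.84 on the uninduced mock arrays, a fold change of -0.47 (SE 0.11, limma adjusted p = 0.0137). Its siRNA values were the lowest of the 6 and nearly equal. MRPS2, the counterpart of bacterial S2, read 9.42 and 9.27 on the siRNA arrays, 9.58 and 9.60 on the induced mock arrays, and 9.67 and 9.58 on the uninduced mock arrays (fold change -0.28). MRPS23 read 10.41 and 10.36 on the siRNA arrays, 10.65 on both induced mock arrays, and 10.67 and 10.65 on the uninduced mock arrays (-0.27). In both genes the 4 mock arrays stood close together above the siRNA arrays. MRPS33 had the smallest fall of the small subunit (-0.21), with 10.46 and 10.45 on the siRNA arrays, 10.63 on both induced mock arrays and 10.66 on both uninduced mock arrays.

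Some calls of this size depended on single arrays, while that of MRPS23 held with any 1 array left out. MRPS25 missed the threshold without siRNA replicate 1 (limma adjusted p = 0.0696), without siRNA replicate 2 (0.0697) and without uninduced replicate 1 (0.0513). MRPS33 missed it without either siRNA replicate (0.0714 and 0.0739), and MRPS2 without siRNA replicate 2 (0.149) or uninduced replicate 1 (0.0588).

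In the large subunit 3 further genes fell beside MRPL9. MRPL23, whose bacterial relative lines the mouth of the peptide exit tunnel, read 10.02 and 10.15 on the siRNA arrays, 10.51 and 10.45 on the induced mock arrays, and 10.47 and 10.55 on the uninduced mock arrays, a fold change of -0.43 (SE 0.06, limma adjusted p = 0.0013). MRPL32 read 10.98 and 10.91 on the siRNA arrays, 11.32 and 11.14 on the induced mock arrays, and 11.38 and 11.28 on the uninduced mock arrays, a fold change of -0.39 (SE 0.07, adjusted p = 0.00248). The precursor of this protein is cut by the m-AAA protease as a step of ribosome assembly, as shown in mouse and yeast. The siRNA values of both genes lay below all mock values. MRPL3, a protein whose bacterial relative sits near the catalytic centre, read 11.95 and 11.92 on the siRNA arrays, 12.09 and 12.15 on the induced mock arrays, and 12.12 and 12.15 on the uninduced mock arrays. Its fold change of -0.20 was small but larger than the spread between arrays (SE 0.04, adjusted p = 0.00461).

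The rises were all under 0.5. MRPS18A rose most, at 0.47 (SE 0.07, limma adjusted p = 0.00114). Despite its name it is a protein of the large subunit, a relative of bacterial S18. It read 9.44 and 9.42 on the siRNA arrays, 8.99 and 8.94 on the induced mock arrays, and 8.98 and 8.94 on the uninduced mock arrays. The mock groups covered nearly the same values and the siRNA arrays lay above them.

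MRPL42, a protein without bacterial relative, rose by 0.41 (SE 0.06, limma adjusted p = 0.000884), with 10.69 and 10.64 on the siRNA arrays, 10.25 and 10.18 on the induced mock arrays, and 10.28 and 10.22 on the uninduced mock arrays. MRPL1 belongs to the mobile stalk next to the site where spent tRNA leaves the ribosome. It read 10.11 and 10.12 on the siRNA arrays, 9.67 and 9.65 on the induced mock arrays, and 9.71 and 9.72 on the uninduced mock arrays, a rise of 0.40 (SE 0.06, adjusted p = 0.00111). MRPL22, whose bacterial relative lines the exit tunnel, read 10.86 and 10.85 on the siRNA arrays, 10.48 and 10.49 on the induced mock arrays, and 10.55 and 10.48 on the uninduced mock arrays, a rise of 0.34 (SE 0.05, adjusted p = 0.00139). In these 3 genes both siRNA values lay above all 4 mock values.

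The same held for the small subunit genes MRPS11 and MRPS7, whose bacterial relatives lie on the platform and the head of that subunit. MRPS11 read 10.39 and 10.42 on the siRNA arrays, 10.08 and 10.07 on the induced mock arrays, and 10.03 and 10.10 on the uninduced mock arrays, a rise of 0.34 (SE 0.06, limma adjusted p = 0.00216). MRPS7 read 10.57 and 10.52 on the siRNA arrays, 10.23 and 10.09 on the induced mock arrays, and 10.32 and 10.15 on the uninduced mock arrays, a rise of 0.31 (SE 0.07, adjusted p = 0.0118). The MRPS7 call was lost without siRNA replicate 1 (0.0923) or siRNA replicate 2 (0.0518).

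DAP3, a GTP-binding protein of the small subunit that was first described in cell death, was the smallest rise. Its main probe set read 10.57 and 10.60 on the siRNA arrays, 10.44 and 10.54 on the induced mock arrays, and 10.39 and 10.42 on the uninduced mock arrays, a change of 0.18 (limma adjusted p = 0.0409). The other probe set of the gene read 6.08 and 5.73 on the siRNA arrays, 5.93 and 5.81 on the induced mock arrays, and 5.61 and 5.68 on the uninduced mock arrays. The call did not hold when both sets were averaged (adjusted p = 0.103), under quantile normalization (0.114), or when any 1 of the 6 arrays was left out (0.0509 to 0.174).

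The other 6 genes that rose were all in the large subunit and rose by 0.21 to 0.31. MRPL17, a counterpart of bacterial L17, read 10.29 and 10.31 on the siRNA arrays, 10.02 and 9.94 on the induced mock arrays, and 9.95 and 10.02 on the uninduced mock arrays (fold change 0.31). MRPL43, a protein without bacterial relative, read 9.35 and 9.26 on the siRNA arrays, 8.94 and 8.98 on the induced mock arrays, and 9.02 and 9.02 on the uninduced mock arrays (0.29). MRPL14, which in human cells binds the assembly factor MALSU1, read 10.86 and 10.85 on the siRNA arrays, 10.62 and 10.45 on the induced mock arrays, and 10.60 and 10.57 on the uninduced mock arrays (0.27). The remaining rises were those of MRPL24 (0.23), MRPL51 (0.22) and MRPL45 (0.21), a protein that helps to anchor the ribosome at the inner membrane. For all 6 genes the siRNA arrays lay above all mock arrays. Except for MRPL17 their calls were lost when siRNA replicate 1 was left out (limma adjusted p of 0.0593 to 0.208), and those of MRPL14, MRPL24, MRPL45 and MRPL51 also without siRNA replicate 2 (0.0521 to 0.19). MRPL24 and MRPL45 lost theirs, too, without induced replicate 1, induced replicate 2 or uninduced replicate 2 (0.0594 to 0.147).

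Of the 5 translation factors 1, TSFM, was called. It is the exchange factor that reloads the elongation factor TUFM with GTP. It read 7.05 and 6.98 on the siRNA arrays, 7.52 and 7.39 on the induced mock arrays, and 7.64 and 7.44 on the uninduced mock arrays, a fold change of -0.52 (SE 0.11, limma adjusted p = 0.00716) with all siRNA values below all mock values. The call was lost without siRNA replicate 2 (adjusted p = 0.0546).

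TUFM, which brings charged tRNA to the ribosome, read 9.26 and 9.20 on the siRNA arrays, 9.41 and 9.39 on the induced mock arrays, and 9.40 and 9.44 on the uninduced mock arrays. Its fold change of -0.19 did not pass (limma adjusted p = 0.0626), although the siRNA arrays were the lowest of the 6. GFM1, the factor of translocation, had a fold change of -0.05 with 7.78 and 7.78 on the siRNA arrays, 7.82 and 7.65 on the induced mock arrays, and 8.12 and 7.55 on the uninduced mock arrays. Its uninduced arrays enclosed all other values, and without uninduced replicate 2 the difference was -0.34 (adjusted p = 0.049), and without uninduced replicate 1 it was 0.23 (adjusted p = 0.149), in the other direction. The initiation factors MTIF2, which places the first tRNA, and MTIF3, which readies the small subunit, had fold changes of 0.03 and 0.06 and overlapping groups.

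The 57 genes that were not called had fold changes between -0.34 and 0.33. Their 95% confidence intervals reached from -0.65 for MRPL19 to 0.65 for MRPL50. The widest was that of MRPL41 (-0.33 to 0.64), which read 5.43 and 6.15 on the siRNA arrays, 5.77 and 5.91 on the induced mock arrays, and 5.61 and 5.65 on the uninduced mock arrays. MRPL41 and MRPL19 were chosen for mention after their values were seen. MRPL19 (-0.34) and MRPL50 (0.33) each had 1 uninduced array near the siRNA values and 1 far from them: MRPL19 read 8.56 and 8.49 on the siRNA arrays, 8.92 and 8.89 on the induced mock arrays, and 9.12 and 8.61 on the uninduced mock arrays. MRPL50, a large subunit protein without bacterial relative, read 7.55 and 7.57 on the siRNA arrays, 7.14 and 7.11 on the induced mock arrays, and 7.45 and 6.995 on the uninduced mock arrays. Without uninduced replicate 1 its fold change was 0.56 (limma adjusted p = 0.00672), and without uninduced replicate 2 it was 0.10 (adjusted p = 0.53).

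The siRNA arrays were also set against induced mock cells, which differ from them in induction of the transgene as well as in siRNA. This comparison shares its siRNA arrays with the one above. Of the 81 genes 17 rose and 13 fell, which is 37.0% called beside 28.4% of all genes, with rises at 21.0% beside 14.0% and falls at 16.0% beside 14.5%. The median fold change was 0.04, beside 0.01 over all genes. The counts were again unsteady: without induced replicate 1 there were 10 rises and 7 falls, without induced replicate 2 there were 8 and 7, and without siRNA replicate 2 there were 10 and 7.

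Since the siRNA arrays are shared, calls common to both comparisons are not independent and are not counted here. A few genes were called in 1 of them only. DAP3 rose against uninduced mock cells and was not called against induced ones (0.10, limma adjusted p = 0.25). MRPS16 and MRPL28 fell, and 5 genes rose, against induced cells alone. MRPS16, the counterpart of bacterial S16, read 8.39 and 8.44 on the siRNA arrays, 8.70 and 8.86 on the induced mock arrays, and 8.78 and 8.47 on the uninduced mock arrays, a fold change of -0.37 against induced cells (limma adjusted p = 0.033). MRPL28 fell by 0.21 (adjusted p = 0.0356). For both genes the uninduced values also lay above the siRNA values. Against uninduced cells the fold change of MRPS16 was -0.36 without uninduced replicate 2 (limma adjusted p = 0.0223) and -0.05 without uninduced replicate 1 (adjusted p = 0.733). That of MRPL28 was -0.23 without uninduced replicate 1 (adjusted p = 0.0332) and -0.13 without uninduced replicate 2 (adjusted p = 0.189).

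Of the 5 genes that rose against induced cells alone, MRPL50 rose by 0.43 (limma adjusted p = 0.0479) and MRPS31, a small subunit protein without bacterial relative, by 0.31 (adjusted p = 0.0099). MRPS31 read 10.25 and 10.37 on the siRNA arrays, 10.08 and 9.91 on the induced mock arrays, and 10.13 and 10.10 on the uninduced mock arrays, so that its siRNA values were the highest and its induced values the lowest. The other 3, MRPL33, MRPL18 and MRPL27, named after their values were seen, rose by 0.23, 0.19 and 0.17. A call against 1 mock group and not the other is no test that the groups differ, and MRPL50 and MRPS31 did not pass in induced minus uninduced cells.

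**Figure D3:**
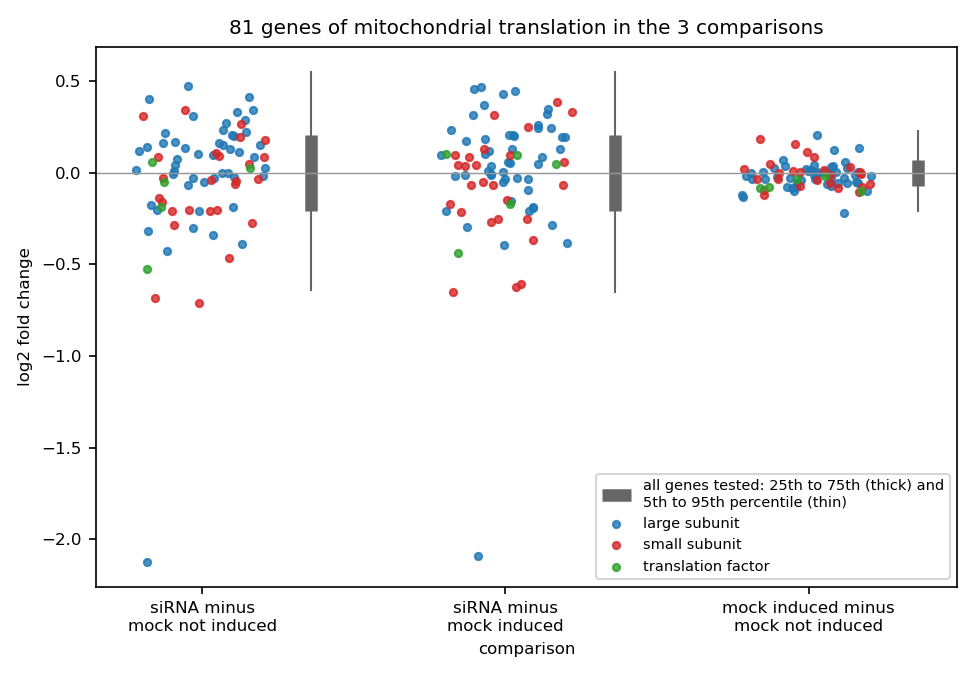
Log2 fold change of the 81 genes in the 3 comparisons, each point a gene, coloured by large subunit, small subunit or translation factor, spread sideways only for legibility. Grey bars give all 11584 genes, thick from the 25th to the 75th percentile and thin from the 5th to the 95th. The 2 siRNA comparisons spread the genes to both sides with MRPL9 near -2.1 in each, and induced minus not induced holds them between -0.22 and 0.21.

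No gene of the mitochondrial ribosome passed the threshold on induction of the LIN28B transgene. LIN28B itself read 0.19 higher on the induced arrays and was not called, so these arrays do not show how far LIN28B was raised. In induced minus uninduced mock cells 0 of the 81 genes were called by limma, beside 0% of all 11584 genes, and 1 of the 81 and 344 of all genes had an unadjusted p under 0.05. Fold changes of the 81 genes ran between -0.22 and 0.21 with a median of -0.02. The induced and uninduced arrays did not overlap for 17 genes (21.0%), beside 27.5% of all genes, where 0% were called.

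The gene with the smallest unadjusted p was MRPL54, a large subunit protein without bacterial relative. It read 9.67 and 9.54 on the induced arrays, against 9.89 and 9.76 on the uninduced arrays, and 9.76 and 9.85 on the siRNA arrays. Both induced values lay below both uninduced values, a fold change of -0.22. Its unadjusted limma p was 0.0154, and its adjusted p was 0.999. MRPL48 was 0.12 lower (unadjusted p = 0.115), MRPS31 was 0.12 lower (0.126) and MRPS25 was 0.18 higher (0.137). None of these differences passed after adjustment over all genes.

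Genes of the wider machinery of mitochondrial gene expression were read from lists by function. They are given for siRNA minus uninduced mock cells, where 14.5% of all genes fell, 13.5% rose and 28.0% were called. Of 26 measured genes of ribosome assembly and rRNA modification 4 fell and 0 rose (15.4% called), with a median of -0.10. The largest falls were those of TFB1M (-0.89), which methylates the RNA of the small subunit, METTL15 (-0.83), another methyltransferase of that RNA, and RPUSD3 (-0.81), a pseudouridine synthase. TFB1M read 7.19 and 7.11 on the siRNA arrays, 8.09 and 8.02 on the induced mock arrays, and 8.10 and 7.99 on the uninduced mock arrays, with no overlap. In size these falls lie between those of MRPL9 and MRPS34.

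Of 13 genes of mitochondrial tRNA modification 2 rose and 6 fell (61.5% called), with a median of -0.10. MTFMT, which attaches the formyl group to the initiator tRNA, fell by 0.97 (SE 0.14, limma adjusted p = 0.00117). It read 6.74 and 7.19 on the siRNA arrays, 7.91 and 7.94 on the induced mock arrays, and 8.04 and 7.85 on the uninduced mock arrays. PUS1, a pseudouridine synthase of tRNA, fell by 0.62, and YRDC, which takes part in making the threonylcarbamoyl adenosine of tRNA, rose by 0.61.

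Of 20 mitochondrial aminoacyl-tRNA synthetases 4 fell and 0 rose (20.0% called), with a median of -0.06. IARS2 (-0.82), NARS2 (-0.63) and EARS2 (-0.57), the enzymes for isoleucine, asparagine and glutamate, fell most. Of 12 genes of release, recycling and insertion into the membrane 3 fell and 0 rose: COX18 (-0.57), which inserts a subunit of cytochrome oxidase, GUF1 (-0.51), a GTPase related to elongation factors, and MTRES1 (-0.43), which rescues stalled mitochondrial ribosomes. For transcription and RNA stability 1 of 21 rose and 2 fell. GRSF1 (-0.36) and TRMT10C (-0.31) fell, while HSD17B10, the partner of TRMT10C in mitochondrial RNase P, rose by 0.24. None of 3 further mitochondrial ribosomal proteins with other kinds of name was called.

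**Figure D4:**
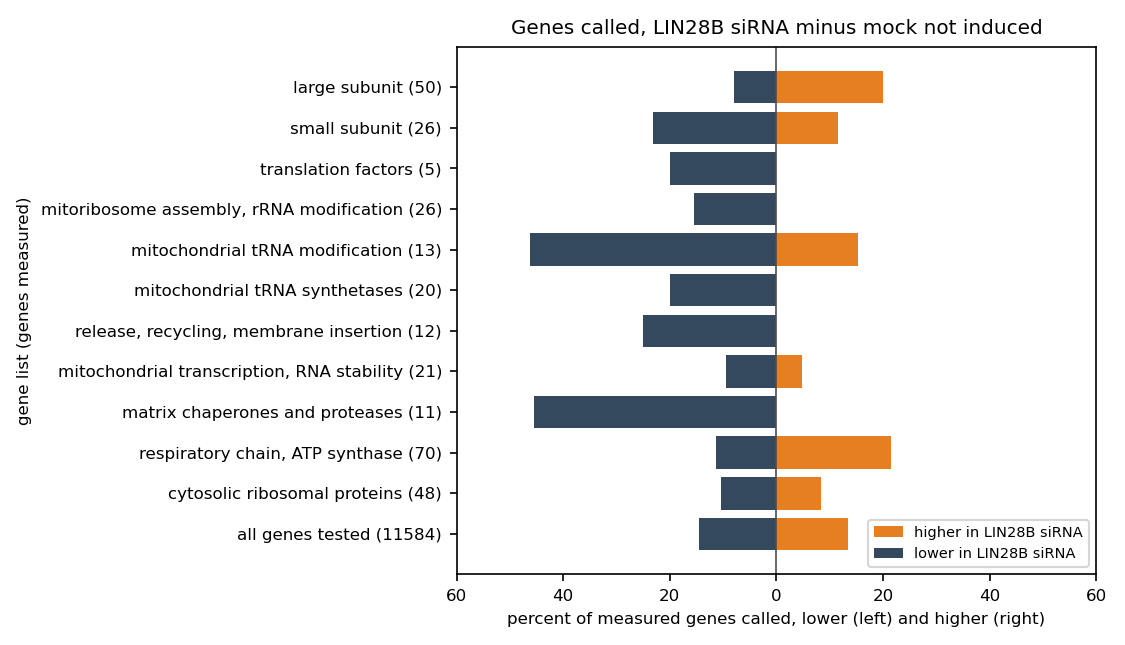
Share of the measured genes of each list called lower (left of 0) and higher (right of 0) in LIN28B siRNA minus mock not induced, with the number of genes measured in brackets. Large subunit, respiratory chain and cytosolic ribosomal bars extend to both sides, while assembly, tRNA synthetase, release and chaperone bars extend only to the left; lists of few genes give coarse shares.

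Proteins that work beside the ribosome in the matrix or that it supplies showed their own mix. Of 11 matrix chaperones and proteases 5 fell and 0 rose (45.5% called), with a median of -0.13, led by TRAP1 (-0.76), HSPA9 (-0.51) and HSPD1 (-0.30). Of 70 nuclear genes of the respiratory chain and ATP synthase 15 rose and 8 fell (32.9%), with a median of 0.07. COX7A2L, which takes part in joining respiratory complexes, rose most, by 0.51, while UQCR11 fell by 0.48 and ATP5F1D by 0.46. Of 48 cytosolic ribosomal protein genes 4 rose and 5 fell (18.8%), with a median of -0.01, and RPL37 (-0.73), RPS15A (-0.70) and RPS23 (0.36) changed most. These counts are described beside the 28.0% of all genes called, and no test between lists was made.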

How the data were processed

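Total RNA (2 µg per sample) was labelled and hybridised to Affymetrix U133 Plus 2.0 arrays, per the labels' protocols. The deposited values are log2 signals, 1 per probe set and array, made with affy and GCRMA, per the submitters' processing notes. Their versions are not given in the sources used here. The file does not name the log base, here read as 2, as GCRMA gives. The table held 13008 probe sets of the array. How they were selected is not stated in those sources, so a transcript low on all arrays was not analysed.

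Gene names came from the platform annotation, with symbols updated to RefSeq of GRCh38.p14: 11719 had 1 symbol, 609 several and 680 none, and 11578 of the 11584 genes matched RefSeq. Genes needed a value over 4 on 2 or more arrays, which removed 0 genes. Genes were fitted with limma 3.58.1 in R 4.3.3 (lmFit, then eBayes with its trend option). All 3 groups were in 1 model, with 3 residual and 6.73 prior degrees of freedom, two-sided, with Benjamini-Hochberg adjustment over all genes. The script was tested on simulated data. The number of arrays limits the precision.

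The gene set, the function lists and the motifs were chosen with earlier results of these data known. Named were LIN28B, MRPL9, MRPS9, DAP3, the factors, genes called in either siRNA comparison (at most the 12 largest each way), the 4 of smallest p on induction, and the 3 called genes of largest change in each function list. Called cell type markers and neighbours of called genes were also named, chosen after their values were seen, and so were the other genes marked in the text. Alternatives covered scaling, the filter, the intensity trend, a replicate block, the probe set rule, the mock arrays used, a minimum of 2-fold, and each array left out. The labels do not say if replicate numbers pair the samples, and the main model used no pairing. The deviations of same-numbered arrays correlated at r = 0.016 (siRNA and induced), -0.057 (siRNA and uninduced) and 0.181 (induced and uninduced). Across probe sets, induced and uninduced arrays of the same number correlated at 0.9935 and 0.993, and those of different number at 0.9916 and 0.992. These values do not settle if samples were paired. Promoter windows came from RefSeq, using the first start listed for a gene.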

Additional observations from a re-analysis of the deposited data

Results flagged for a closer look

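Probe sets that carry several gene symbols were kept out of the comparisons. Of 4 such sets that match the names searched, 2 read higher on the siRNA arrays than on all mock arrays. The set for MRPL53 and CCDC142 read 10.55 and 10.55 on the siRNA arrays, 10.24 and 10.05 on the induced mock arrays, and 10.20 and 10.08 on the uninduced mock arrays, a difference of 0.41 from the uninduced mean. MRPL53, a large subunit protein, had no set of its own among the data. The set for MRPL51 and SPTLC1 read 9.78 and 9.70 on the siRNA arrays, 9.53 and 9.40 on the induced mock arrays, and 9.39 and 9.43 on the uninduced mock arrays, a difference of 0.33. MRPL51 also rose in its own set, by 0.22. In these 2 sets the siRNA arrays lay above all 4 mock arrays. The set for MRPS24 and the readthrough URGCP-MRPS24 differed by 0.04, with 12.75 and 12.58 on the siRNA arrays, 12.55 and 12.58 on the induced mock arrays, and 12.64 and 12.61 on the uninduced mock arrays. The set for the pseudogene MRPS31P5 and THSD1 differed by -0.35, with 7.17 and 6.94 on the siRNA arrays, 7.08 and 7.33 on the induced mock arrays, and 7.24 and 7.58 on the uninduced mock arrays. These differences were not tested, and which of the named genes each set reads was not analysed here.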

How the results depend on the processing

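The counts of called genes moved with the settings, and no call changed direction. Among the 81 genes, rises against uninduced cells (13) became 20 with arrays centred on their medians, 6 without the intensity trend, 0 with a minimum of 2-fold and 21 against the mean of both mock groups, which puts 4 arrays on the mock side and called 34.6% of all genes. Falls (11) became 7 without the trend, 1 with a minimum of 2-fold and 17 against the mean of both mock groups. Against induced cells, rises (17) became 8 without the trend and 0 with a minimum of 2-fold, and falls (13) became 6 and 1. Over all genes, 3242 calls became 255 with a minimum of 2-fold. With 1 array left out, the ranges were 6 to 16 rises and 8 to 17 falls against uninduced cells, 8 to 20 rises and 7 to 16 falls against induced cells, and 1664 to 3143 calls over all genes. A replicate block gave 13 rises and 14 falls against uninduced cells and 3422 calls over all genes. The labels do not say if replicate numbers pair the samples. MRPL1, MRPL17, MRPL22, MRPL42, MRPS11 and MRPS18A rose, and MRPL9, MRPL23, MRPL32, MRPS9 and MRPS34 fell, under every alternative except the minimum of 2-fold, which MRPL9 alone passed. The other 13 calls were each lost under at least 1 alternative. The cause of these changes was not tested. On induction 0 of the 81 genes were called under every alternative run. The LIN28B fold change lay between -2.504 and -2.331 with 1 array left out. The number of arrays, 2 a group, limits the precision of each value.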

Other observations

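Genes next to the called genes were looked at for their own values in siRNA minus uninduced mock cells, and those named here were chosen after their values were seen. NME3, a nucleoside diphosphate kinase gene within 1000 bases of MRPS34, fell by 0.89 (SE 0.07, limma adjusted p = 6.24e-05). EME2, a partner of the MUS81 nuclease whose gene overlaps MRPS34, had a fold change of -0.35 and was not called (limma adjusted p = 0.23). MRPS11 and MRPL46 lie within 1000 bases of each other, and MRPS11 rose by 0.34 while MRPL46 had a fold change of -0.05 (limma adjusted p = 0.628). PSMA2, a proteasome gene near MRPL32, had a fold change of -0.08, and TWNK, the mitochondrial DNA helicase gene near MRPL43, one of -0.16, and neither was called. Of the neighbours measured, NME3 was the only one called, in a comparison where 28.0% of all genes were called.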
